A study of Mus musculus with 6 samples.

Results

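Cytosolic ribosomal proteins are the protein parts of the ribosome that translates the messages of the nucleus, with Rpl names for the large subunit, Rps names for the small subunit, and Rplp names for the stalk of the large subunit. They were examined here in blood-forming stem cells (hematopoietic stem cells, HSCs) and in their early descendants, the multipotent progenitors (MPPs), of Bmi1 KO mice. The genes were taken by name from the array design: every symbol of the form Rpl, Rps or Rplp followed by a number and at most 1 letter, plus Rpsa. This gave 81 of the 34797 gene names on the array, 49 of the large and 32 of the small subunit, measured by 186 of 55681 probes. After a filter on dim probes 80 of the 81 were tested, 48 large and 32 small, among 28986 features. The gene left out was Rpl39l, a paralogue of Rpl39 known mainly from testis, which was well above background on 0 arrays in either channel.

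Bmi1 is a subunit of Polycomb repressive complex 1, and the series compares gene expression of cells with and without it. HSCs and MPPs were sorted by FACS from wild-type (WT) and Bmi1 KO mice, all on the C57BL6 background and 2 to 3 months old. Every one of the 6 two-colour Agilent arrays set 1 KO sample in red (Cy5) against 1 WT sample of the same population in green (Cy3), with 3 arrays for HSCs and 3 for MPPs. Total RNA (10 µg) had been labelled during reverse transcription from a T16N2 primer. The labels call the replicates biological and give neither the number of mice behind a sample nor the part of Bmi1 that the KO allele lacks. The KO was always red, so a dye effect particular to a probe cannot be told apart from genotype in a KO/WT ratio. It drops out where MPP ratios are set against HSC ratios, or where samples of 1 dye are compared. These are bulk samples, in which fewer cells of a type and less RNA per cell cannot be told apart.

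The ribosome is built in the nucleolus, where the proteins are assembled with ribosomal RNA, and cells normally make the proteins in near equal numbers because each ribosome holds a single copy of most of them. Their messages are among the most abundant in a cell and begin with a 5′ terminal oligopyrimidine (TOP) tract, through which mTOR signalling and Larp1 control their translation as a group. Blood formation is known to be sensitive to their dosage: loss of 1 copy of several of these genes causes Diamond-Blackfan anaemia, and free Rpl5 and Rpl11 bind Mdm2 and so stabilise p53. Low protein synthesis is a known property of HSCs.

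The spots were bright. Of the 80 genes, 72 lay at or above the 90th percentile of intensity of all features, and 16 were among the 290 brightest. Between 96.9% and 99.0% of their spots were well above background per array and channel, against 72.5% to 82.2% of all spots in green and 78.8% to 83.9% in red. No spot of theirs was saturated (0 of 195). All arrays came from 1 slide and 1 scan; row 1 of the slide held the 3 HSC arrays with MPP replicate 1, and row 2 held the other MPP arrays. The brighter Bmi1 probe had log2 KO/WT ratios of -0.39, -2.42 and -0.50 in HSCs and 0.23, -0.69 and 0.48 in MPPs, lower in KO on 4 of 6 arrays. The other Bmi1 probe had 0.11, -1.66 and 1.36 in HSCs and 0.93, 0.70 and -0.05 in MPPs, lower in KO on 2 of 6. Since the deleted part is not given, neither probe checks the labels. Of 12 markers of stem and progenitor cells, 11 were well above background in both channels of every array (all but Slamf1). Of 8 B lineage markers 6 were too, as were 4 of 7 erythroid, 7 of 10 neutrophil and monocyte and 4 of 5 T and NK cell markers. Markers of several cell types passed this rule, so passing it does not check which cells were sorted. The summed level of the B lineage markers on the linear scale ranged from 1719 to 3641 in WT HSCs and 3581 to 15854 in KO HSCs, and from 2899 to 4736 in WT MPPs and 25385 to 162143 in KO MPPs. The summed erythroid level spanned 1911 to 34347, 4247 to 44961, 2356 to 9228 and 17260 to 70082 in the same order, the neutrophil and monocyte level 13783 to 43941, 43683 to 118818, 39416 to 72334 and 113217 to 182812, and the T and NK level 924 to 4626, 2434 to 3548, 841 to 1038 and 1692 to 1982. Such sums can be set against each other only within a dye. As log2 KO/WT ratios, 8 of 8 B lineage markers were above 0 in MPPs (median 3.62) and 5 of 8 in HSCs (median 0.19). Their median was 2.01, 4.46 and 4.23 on MPP replicates 1 to 3, the same arrays as the MPP ratios below. Their part in the results on ribosomal proteins was not tested.

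A ribosomal protein gene has close copies elsewhere in the genome, so the probes that the results turn on are shown here as letters. Positions are those of the array files on mm9, and a span much longer than the 60 bases means that the probe crosses an intron. The first 5 are the probes of the genes whose ratio had 1 sign on 6 of 6 arrays. The last pair are the paralogues Rps27 and Rps27l.
Rps25 (chr9:44216951-44218094): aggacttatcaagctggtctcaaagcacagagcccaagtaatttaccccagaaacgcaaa
Rps26 (chr10:128062300-128062359): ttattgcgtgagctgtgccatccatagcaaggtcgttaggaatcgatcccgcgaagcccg
Rpl29 (chr9:106333554-106333613): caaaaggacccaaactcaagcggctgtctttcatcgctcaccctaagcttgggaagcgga
Rpl39 (chrX:34622696-34623990): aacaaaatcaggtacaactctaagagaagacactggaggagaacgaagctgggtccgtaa
Rps16 (chr7:29137597-29137656): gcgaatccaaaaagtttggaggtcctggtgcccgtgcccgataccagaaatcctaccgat
Rps27 (chr9:114891672-114891731): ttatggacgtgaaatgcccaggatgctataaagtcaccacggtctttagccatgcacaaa
Rps27l (chr9:66795486-66797176): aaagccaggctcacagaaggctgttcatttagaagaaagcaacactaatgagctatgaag
Over all 186 probes, 45 spanned more than 60 bases. Of 183 with a known chromosome on both sides, 11 probes of 5 genes (Rpl13, Rpl36, Rps27, Rps29 and Rps4x) were placed on another chromosome than RefSeq gives for the gene. The Rps27 probe above is 1 of these, placed on chromosome 9 where RefSeq has the gene on chromosome 3. The probes were not aligned to the genome. Signals of these genes, and of any other probe whether or not it crosses an intron, may include transcripts of near-identical copies and are uncertain to that extent.

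The ribosomal protein genes as a whole stood close to the middle of the array in both populations. In HSCs the median log2 KO/WT ratio of the 80 genes was 0.13, with 50 above 0, and the median of all 28986 features was 0.00. In MPPs it was -0.05, with 38 above 0, beside 0.01 for all features. Single genes ran from -0.94 to 1.20 in HSCs and from -1.41 to 1.24 in MPPs. No gene passed an adjusted p of 0.05 in limma in either population (0 of 80, with 0% of all features in HSCs and 0% in MPPs). At an unadjusted p of 0.05, 2 of 80 passed in HSCs, both higher in KO and 0 lower, where 7.42% of all features did (3.96% higher, 3.46% lower). In MPPs 5 passed, 3 higher and 2 lower, where 5.10% of all features did (2.49% higher, 2.61% lower). The smallest adjusted p from limma was 0.663 in HSCs and 0.964 in MPPs. Both shares are near or below the background.

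These centres depended on the scaling. Loess subtracts a fitted curve of ratio against intensity on each array. With ratios centred on the array median instead, the members' median was 1.16 in HSCs and 0.71 in MPPs. The median of all features was then 0.29 and 0.26. The statement that members sit near 0 therefore holds only relative to the loess curve. The other bright features described below had medians above that curve on every array, most so on MPP replicates 2 and 3. A loess curve fitted without the ribosomal protein spots, tried after the data had been seen, gave 0.14 and -0.05.

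The array medians differed far more than the populations did. The median of the 80 genes was -0.08, 0.25 and 0.01 on HSC replicates 1, 2 and 3, with 35, 58 and 41 genes above 0. On MPP replicates 1, 2 and 3 it was 0.46, 0.01 and -0.61, with 65, 40 and 24 genes above 0. Thus, relative to the loess curve, most genes were higher in KO on MPP replicate 1 and lower on MPP replicate 3. Over arrays the mean of the medians was 0.06 ± 0.17 (SD, n = 3) for the HSC arrays and -0.05 ± 0.53 (SD, n = 3) for the MPP arrays, and the HSC values lay inside the range of the MPP values. The 673 other features at least as bright as the members' median had array medians of 0.11, 0.07 and 0.18 in HSCs and 0.08, 0.46 and 0.62 in MPPs. On MPP replicate 3 those features were therefore above the loess curve and the ribosomal protein genes below it. The centre of the MPP values followed single arrays: it was -0.34 without MPP replicate 1 and 0.18 without MPP replicate 3. With ratios centred on the array median, the members' medians were 0.62, 1.63 and 1.09 on HSC replicates 1 to 3. On MPP replicates 1 to 3 they were then 1.41, 0.64 and 0.12, beside 0.19, 0.28 and 0.24 over all features. MPP replicate 3 was again the lowest array, but above 0.

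**Figure D1:**
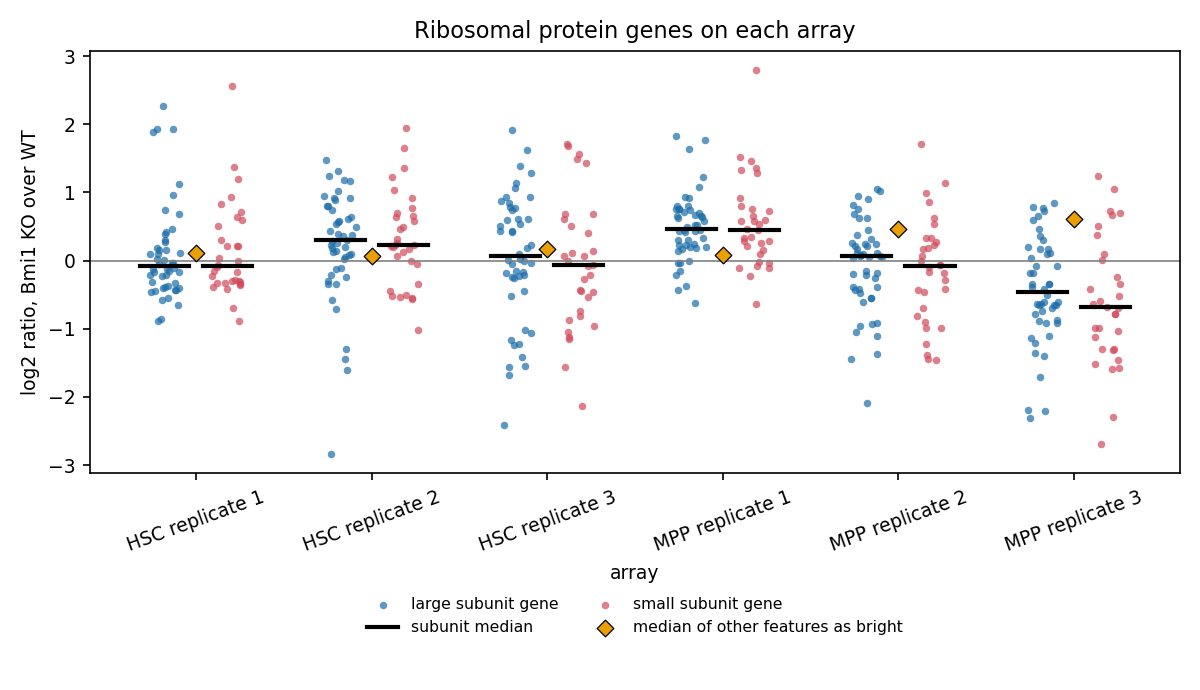
Log2 KO/WT ratio (vertical axis) of every ribosomal protein gene on each of the 6 arrays (horizontal axis), with large subunit genes in blue, small subunit genes in red, black lines at the median of each subunit and a yellow diamond at the median of 673 other features of like or higher brightness. The clouds of both subunits move together from array to array, and on MPP replicate 3 they sit below 0 (large -0.47, small -0.68) while the diamond is at 0.62. All ratios are relative to the loess curve of their array.

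The difference of effects, MPP minus HSC, had a median of -0.11 over the 80 genes and 0.01 over all features, with 27 genes above 0. It was called for 0 genes by limma (0% of all features; smallest adjusted p 0.964), and at an unadjusted p of 0.05 for 0 genes, where 4.06% of all features passed. No gene had HSC and MPP ratios that did not overlap (0 of 80, with 8.10% of all features). With the row of the slide as a covariate, which sets MPP replicate 1 alone against the HSC arrays, this median was 0.23. Without MPP replicate 3 it was 0.07, so its sign was not settled. The mean effect over both populations had a median of -0.04, with 39 genes above 0. It too was called for 0 genes by limma (0% of all features; smallest adjusted p 0.566), and at an unadjusted p of 0.05 for 13 genes, 10 higher and 3 lower, where 8.38% of all features passed (4.50% higher, 3.88% lower).

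The subunits were compared with each other on every array, since a change in 1 subunit alone would part their medians. Large and small subunit medians were -0.08 and -0.08 on HSC replicate 1, 0.29 and 0.23 on HSC replicate 2, and 0.06 and -0.07 on HSC replicate 3. In MPPs they were 0.47 and 0.46 on replicate 1, 0.06 and -0.08 on replicate 2, and -0.47 and -0.68 on replicate 3. The large minus small gap was thus -0.00, 0.07 and 0.13 in HSCs and 0.02, 0.14 and 0.22 in MPPs. It averaged 0.07 ± 0.06 (SD, n = 3) over HSC arrays and 0.12 ± 0.10 (SD, n = 3) over MPP arrays, and its size did not exceed 0.22 on any array, while the medians themselves ranged over more than that. With 3 arrays a two-sided exact sign-flip test cannot give a p below 0.25. In the gene-wise fit the HSC median was 0.13 for large and 0.10 for small subunit genes, and the MPP median was -0.05 for large and -0.10 for small subunit genes. Of the 32 small subunit genes 10 had 1 sign on all HSC arrays and 13 on all MPP arrays, and of the 48 large subunit genes 8 and 18 did. Together these were 18 of 80 in HSCs, 12 higher and 6 lower, where 26.9% of all features had 1 sign on 3 of 3 arrays (13.3% higher, 13.6% lower). In MPPs they were 31 of 80, 21 higher and 10 lower, where 29.0% of all features did (14.8% higher, 14.2% lower).

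A ratio of 1 sign on 6 of 6 arrays was found for 5 genes, where 6.56% of all features had one (3.27% higher, 3.29% lower): Rps25, Rps26 and Rpl29 were above 0 and Rpl39 and Rps16 below 0. None of them passed the adjusted threshold. Rps25, a small subunit protein required for initiation on several viral internal ribosome entry sites, had log2 ratios of 0.21, 1.36 and 1.69 on HSC replicates 1 to 3 and 0.75, 1.71 and 1.25 on MPP replicates 1 to 3. It was higher in KO on every array, least so on HSC replicate 1. The fitted difference was 1.09 (SE 0.36, adjusted p = 0.663 in limma) in HSCs and 1.24 (SE 0.36, adjusted p = 0.964) in MPPs, and the mean effect was 1.16 (SE 0.25, adjusted p = 0.566). Its other probe had means of 1.53 in HSCs and -0.59 in MPPs, so the MPP direction was that of 1 probe only.

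Rps26, which lies at the exit of the mRNA channel, had ratios of 0.30, 0.77 and 1.44 in HSCs and 1.29, 0.87 and 0.66 in MPPs from its only probe. The values of both populations overlapped and all were above 0. Its mean effect was 0.89 (SE 0.21, adjusted p = 0.566 in limma), with 0.83 (SE 0.30) in HSCs and 0.94 (SE 0.30) in MPPs. Rpl29, a large subunit protein also known at the cell surface as a heparin-binding protein, had ratios of 0.01, 0.37 and 0.94 in HSCs and 0.93, 0.11 and 0.18 in MPPs. Its values were near 0 on several arrays, and the mean effect was 0.42 (SE 0.21, adjusted p = 0.629 in limma). Its other probe had means of 0.17 and 0.14.

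Rpl39, a very small protein in the wall of the exit tunnel, had ratios of -0.65, -0.34 and -1.24 in HSCs and -0.43, -0.21 and -1.40 in MPPs. Replicate 3 was the lowest in both populations. The mean effect was -0.71 (SE 0.23, adjusted p = 0.578 in limma), and its other probes had means of -0.41 and -0.35 in HSCs and -0.37 and 0.05 in MPPs. Under median centring the mean effect of Rpl39 was 0.19, so its direction holds only relative to the loess curve. Rps16, a protein of the small subunit head whose tail reaches the decoding site, had ratios of -0.16, -0.55 and -2.13 in HSCs and -0.10, -1.44 and -2.69 in MPPs. Its ratio was close to 0 on replicate 1 of each population and far below 0 on replicate 3 of each. The fitted difference was -0.94 (SE 0.57) in HSCs and -1.41 (SE 0.57) in MPPs, with a mean of -1.18 (SE 0.41, adjusted p = 0.579 in limma). All 3 probes of Rps16 pointed the same way, the others with means of -0.55 and -0.85 in HSCs and -1.17 and -1.46 in MPPs, although under median centring the HSC value was 0.04.

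**Figure D2:**
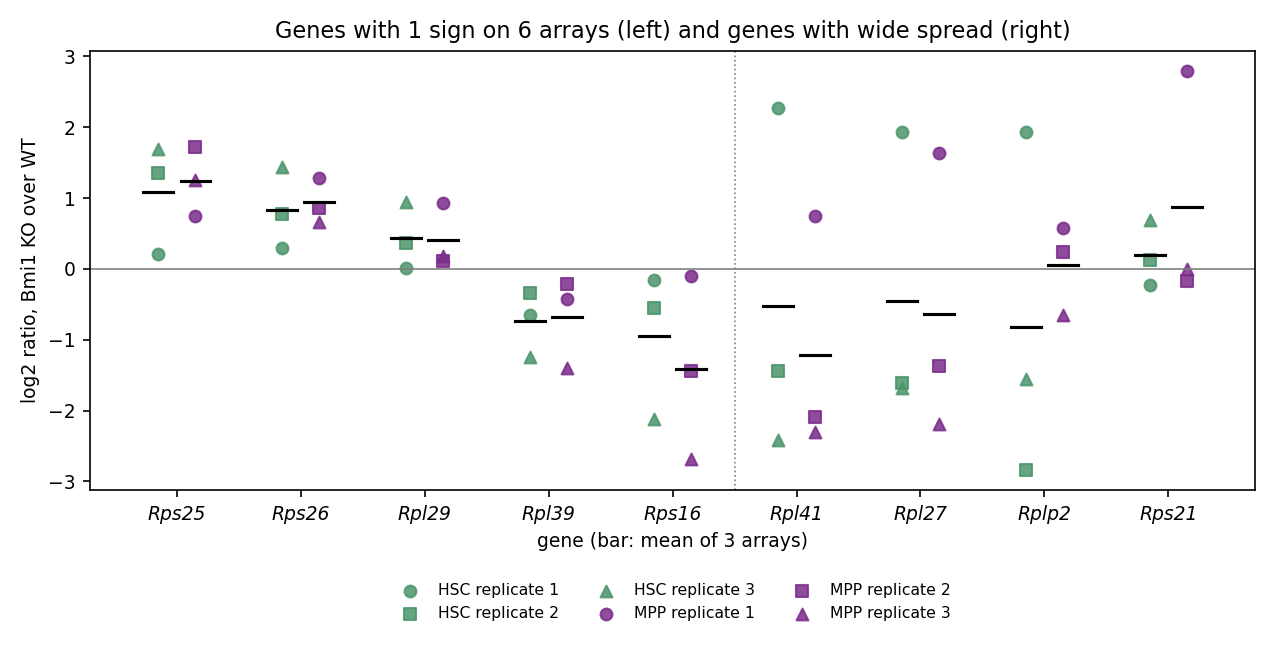
Log2 KO/WT ratio (vertical axis) of 9 ribosomal protein genes (horizontal axis), with HSC arrays in green, MPP arrays in purple, the replicate number given by the shape of the point and black bars at the mean of 3 arrays. Left of the dotted line are the 5 genes with 1 sign on 6 arrays, such as Rps26 with means of 0.83 and 0.94; right of it are 4 genes chosen after their values were seen for their spread, such as Rpl41, which is above 0 on replicate 1 of both populations and below it on the other arrays.

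The other genes named in HSCs had 1 sign on the 3 HSC arrays and wide errors. Rps23, a protein of the decoding centre, had ratios of 2.57, 1.03 and 0.00 in HSCs and 1.36, -0.07 and -0.98 in MPPs. Its HSC difference of 1.20 (SE 0.60, adjusted p = 0.681 in limma) was the highest of the 80 and rested on HSC replicates 1 and 2. Rpl23a, which sits at the mouth of the exit tunnel, had ratios of 1.88, 0.80 and 0.44 in HSCs and 1.82, -0.25 and -0.61 in MPPs, with an HSC difference of 1.04 (SE 0.53). It was high on replicate 1 of both populations. Rpl37, a large subunit protein that can bind Mdm2, had ratios of -0.37, -0.57 and -0.52 in HSCs and 0.23, 0.21 and -0.75 in MPPs. Rps18, of the small subunit head, had ratios of -0.30, -0.05 and -1.15 in HSCs and 0.16, -0.42 and -1.58 in MPPs. Both genes were below 0 on every HSC array, Rpl37 evenly so and Rps18 mainly on replicate 3; under median centring their HSC values were 0.45 and 0.58.

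Of the 8 genes named for their p in MPPs, Rpl14 and Rpl35 varied least between the MPP arrays. Rpl14, a large subunit protein, had MPP ratios of 0.76, 0.81 and 0.73, a mean of 0.77 ± 0.04 (SD, n = 3), beside -0.22, 1.24 and 0.93 in HSCs. Its other probes had MPP means of 1.33 and 0.58 and HSC means of 1.12 and 0.50. Rpl35, a protein at the tunnel mouth, had MPP ratios of 1.08, 0.95 and 0.77, a mean of 0.93 ± 0.16 (SD, n = 3), beside -0.17, 0.49 and 1.63 in HSCs. Both were above 0 on every MPP array and below 0 on HSC replicate 1. Neither passed the adjusted threshold, with an adjusted p of 0.964 in limma for each.

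Rpl7a, a large subunit protein whose introns carry small nucleolar RNAs, had MPP ratios of -0.63, -1.11 and -2.21 and HSC ratios of -0.12, 0.30 and -1.55. Its MPP difference was -1.31 (SE 0.46, adjusted p = 0.964 in limma), but its other 3 probes had MPP means of 0.33, 0.20 and 0.27. The low value of Rpl7a was therefore that of 1 probe of 4. Rpl36, of the large subunit, had MPP ratios of -0.16, -0.96 and -1.21 and HSC ratios of 0.39, 0.18 and -1.03. Its MPP mean of -0.78 ran from -1.09 without MPP replicate 1 to -0.20 without MPP replicate 2. The Rpl36 probe is 1 of those placed on another chromosome than the gene.

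The spread over arrays was large for a handful of genes, which were singled out after their values were seen. Rpl41, the shortest ribosomal protein, had ratios of 2.27, -1.45 and -2.42 in HSCs and 0.75, -2.09 and -2.31 in MPPs. Rpl27, a large subunit protein, had ratios of 1.93, -1.61 and -1.68 in HSCs and 1.64, -1.37 and -2.20 in MPPs. Both were high in KO on replicate 1 and low on replicates 2 and 3 in both populations. The channels of Rpl41 showed this mostly in WT: its log2 level in WT was 12.86, 15.01 and 15.57 in HSCs and 13.32, 16.20 and 16.17 in MPPs, while in KO it was 16.85, 15.84 and 15.20 in HSCs and 15.86, 15.60 and 15.28 in MPPs. Rpl27 in WT was likewise lowest on replicate 1, at 13.05, 14.93 and 15.05 in HSCs and 12.69, 15.49 and 15.99 in MPPs. Its other probe had ratio means of 0.04 and -0.54. Rplp2, an acidic protein of the stalk that recruits elongation factors, had ratios of 1.94, -2.84 and -1.56 in HSCs and 0.58, 0.24 and -0.65 in MPPs, the widest range of any of the 80, at 4.78. Rps21, of the small subunit, was high on MPP replicate 1 alone, with ratios of 2.80, -0.18 and 0.00 there and -0.22, 0.13 and 0.69 in HSCs.

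Other genes hardly varied. The range over 6 arrays was 0.48 for Rpl27a and 0.69 for Rps6. Over the 80 genes the median range was 1.58, beside 1.79 over all features and 1.40 over the other 673 bright features. Within the dyes, the median SD of a gene's log2 level over 3 samples was 0.39 in WT HSCs and 0.41 in WT MPPs, and 0.29 in KO HSCs and 0.20 in KO MPPs. For all features these SDs were 0.43, 0.38, 0.48 and 0.29.

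The pattern of ratios over the 80 genes recurred between certain arrays, across populations. Over the 80 genes the ratios of HSC replicate 3 had a Pearson correlation of 0.846 (Spearman 0.820) with those of MPP replicate 3, 0.750 with MPP replicate 2 and 0.571 with HSC replicate 2. MPP replicates 2 and 3 correlated at 0.819. HSC replicate 1 ran the other way, at -0.372 with HSC replicate 2, -0.436 with HSC replicate 3, -0.409 with MPP replicate 2 and -0.407 with MPP replicate 3, and at 0.322 with MPP replicate 1. These are correlations across genes within pairs of arrays, each array with its own WT and KO sample; the genes are not independent replicates, and the arrays share the slide, the probes and their base composition. Over all 28986 features the same correlations ran from -0.076 to 0.221. The correlation of HSC replicate 3 with MPP replicate 3 was 0.891 over large and 0.797 over small subunit genes. The opposition of HSC replicate 1 was mainly that of the large subunit genes: against HSC replicate 2 they gave -0.646 and the small subunit genes 0.123, and against MPP replicate 3 they gave -0.520 and the small subunit genes -0.266. Other bright features were also correlated between some arrays, at 0.857 for MPP replicates 2 and 3 and 0.738 for HSC replicates 2 and 3, but for HSC replicate 3 against MPP replicate 3 they gave 0.396, and for HSC replicate 1 against MPP replicate 3 they gave 0.484, where the ribosomal protein genes gave -0.407.

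**Figure D3:**
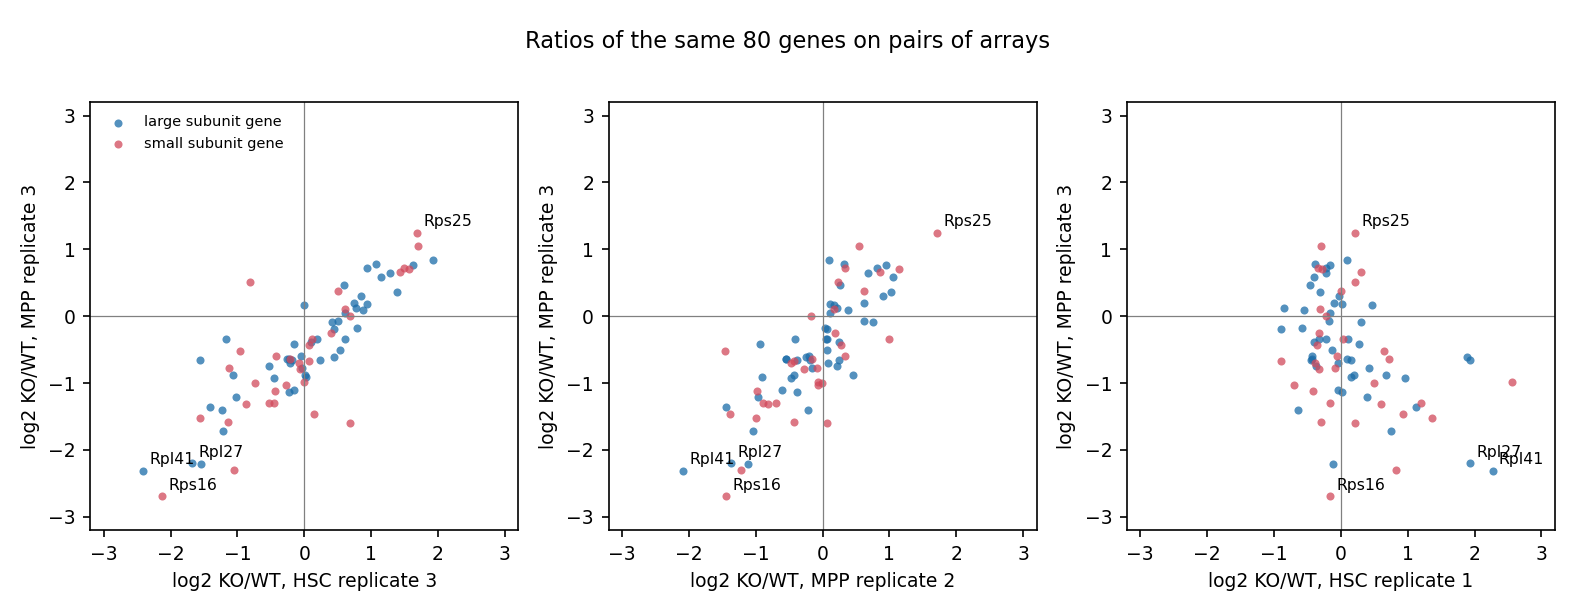
Log2 KO/WT ratios of the 80 genes on pairs of arrays, with 1 array on each axis, large subunit genes in blue and small subunit genes in red. HSC replicate 3 and MPP replicate 3 (left, r = 0.846) and MPP replicates 2 and 3 (middle, r = 0.819) rank the genes alike, while HSC replicate 1 and MPP replicate 3 (right, r = -0.407) oppose each other, with Rpl41 and Rpl27 at the ends.

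The likeness of these arrays was also computed under other processing. With the deposited log ratio, median centring, the mean of all probes or the loess curve without members, settings chosen after the data had been seen, the correlation of HSC replicate 3 with MPP replicate 3 stayed between 0.720 and 0.868. That of MPP replicates 2 and 3 stayed between 0.696 and 0.827, and that of HSC replicate 1 with MPP replicate 3 between -0.442 and -0.264. The opposition of HSC replicate 1 was smaller under median centring, at -0.123 with HSC replicate 2 and -0.186 with MPP replicate 2. The 58 genes with several probes gave a measure of probe error. Among their 161 probes the SD of probes within a gene was 0.32 to 0.66 per array, and the SD of gene means was 0.41 to 0.77. The correlation of the ratio with the GC content of the probe over the 80 genes lay between -0.233 and 0.206 on the 6 arrays, negative on 4 of them. The part of probe composition or RNA quality in the pattern was not tested.

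Genes mutated in Diamond-Blackfan anaemia, an inherited failure of red cell production, were all measured (20 of 20). In HSCs 10 had a difference above 0 and 10 below, with a median of 0.01, and in MPPs 10 and 10 with a median of -0.05. None was called in either direction by limma; at an unadjusted p of 0.05, 1 was higher in HSCs (3.96% of all features) and 2 in MPPs (2.49%), and 0 were lower in either. In the mean effect 4 of the 20 were higher at an unadjusted p of 0.05 (4.50% of all features) and 0 lower (3.88%). These were Rps26, at 0.89 (SE 0.21); Rps24, a small subunit protein, at 0.82 (SE 0.28); Rpl35, at 0.79 (SE 0.26); and Rpl31, a large subunit protein, at 0.59 (SE 0.20). Rps24 had ratios of -0.28, 1.23 and 1.57 in HSCs and 0.58, 1.14 and 0.70 in MPPs, and Rpl31 had -0.03, 0.89 and 0.84 in HSCs and 0.65, 0.90 and 0.30 in MPPs. Both were above 0 on every array but HSC replicate 1. Rps19, the gene most often mutated in the disease, had ratios of -0.36, 0.17 and 0.07 in HSCs and 0.58, 0.27 and -0.42 in MPPs. Its means of -0.04 and 0.14 lay within the spread of the arrays.

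**Figure D4:**
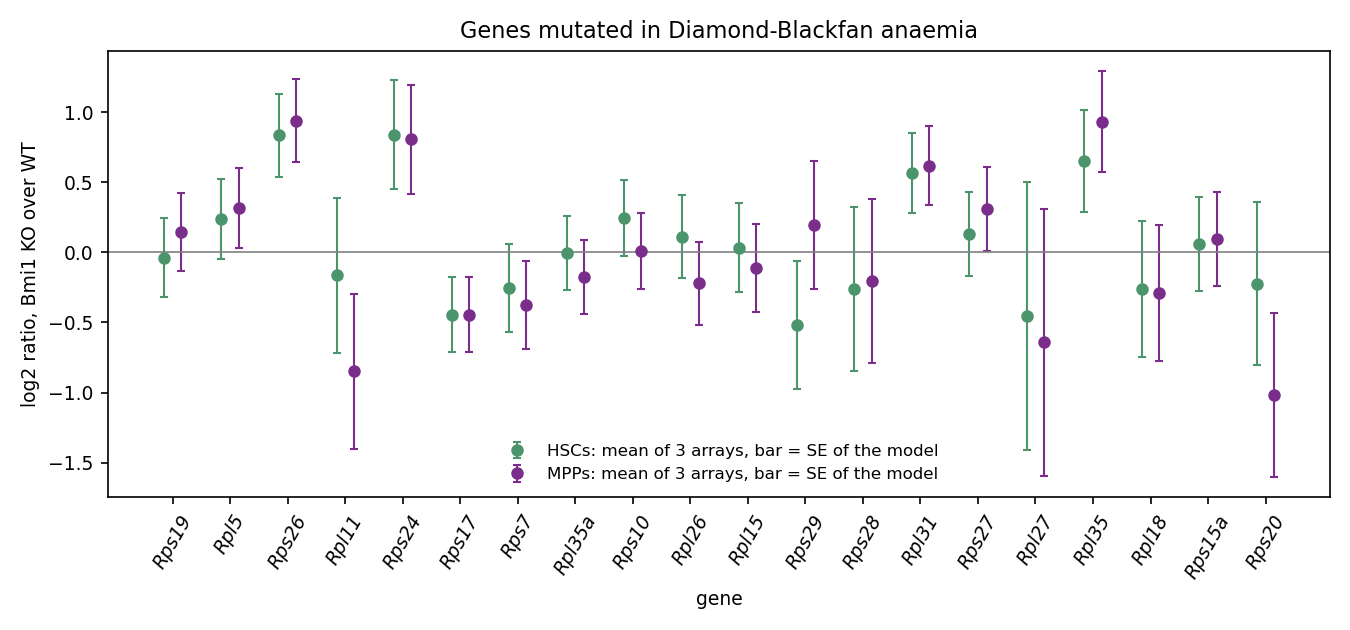
Fitted log2 KO/WT ratio (vertical axis) of 20 genes mutated in Diamond-Blackfan anaemia (horizontal axis), in HSCs (green) and MPPs (purple); points are means of 3 arrays and bars are the standard error of the limma model. The points scatter on both sides of 0, with Rps26 at 0.83 and 0.94 and Rps19 at -0.04 and 0.14.

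Of the members known to bind Mdm2 when free of the ribosome, 15 of 15 were measured. Their median was 0.11 in HSCs, with 8 above and 7 below 0, and 0.04 in MPPs, with the same counts. None was called in either direction, and at an unadjusted p of 0.05 only Rps25 was, higher in each population, where 3.96% of all features were higher in HSCs and 2.49% in MPPs. In the mean effect 3 of the 15 were higher at that p (4.50% of all features) and 0 lower (3.88%): Rps25, Rpl23 at 0.75 (SE 0.27) and Rps27a, which is made as a fusion with ubiquitin, at 0.76 (SE 0.28). Rpl5 and Rpl11, which form a particle with the 5S ribosomal RNA, differed in their pattern over the arrays. Rpl5 had ratios of -0.46, 0.58 and 0.59 in HSCs and 0.23, 0.26 and 0.46 in MPPs, means of 0.24 and 0.32. Rpl11 had ratios of 1.13, -0.21 and -1.41 in HSCs and 0.25, -1.44 and -1.35 in MPPs, means of -0.16 and -0.85. Rpl5 was above 0 on every array but HSC replicate 1, and Rpl11 was above 0 on replicate 1 of each population and below it elsewhere. Rps14, whose loss underlies the anaemia of the 5q- syndrome, had ratios of 0.50, -1.02 and -0.74 in HSCs and 1.32, -0.00 and -0.99 in MPPs.

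The 3 proteins of the stalk, all measured, had HSC differences below 0 (0 of 3 above, median -0.26) and a median of -0.23 in MPPs, with 1 of 3 above 0. None was called in either direction by limma, and 0 passed an unadjusted p of 0.05. Rplp0, the stalk base often used as a reference gene, had ratios of 0.28, -0.13 and -0.16 in HSCs and 0.66, -0.94 and -0.42 in MPPs. Rplp1, an acidic stalk protein, had 0.74, -0.30 and -1.22 in HSCs and 0.44, -1.05 and -1.72 in MPPs. Together with Rplp2 they were above 0 on replicate 1 of both populations and below it on replicate 3 of both. Under median centring Rplp0 was at 0.69 in HSCs and 0.34 in MPPs.

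Rps6, the substrate of S6 kinase, had ratios of -0.39, 0.00 and -0.08 in HSCs and -0.03, -0.47 and -0.69 in MPPs. Rpl22, which is required for the development of some T cells, had -0.89, 0.13 and 0.44 in HSCs and -0.04, 0.06 and -0.19 in MPPs. Rpl38, known for its part in the translation of Hox messages, had -0.55, -0.24 and 0.88 in HSCs and -0.01, 0.37 and 0.10 in MPPs. Rpl22 and Rpl38 crossed 0 in HSCs, while Rps6 was below 0 on HSC replicates 1 and 3 and at 0.00 on replicate 2. Rpsa, which is also a laminin receptor, had -0.32, 0.23 and 0.61 in HSCs and 0.91, 0.17 and 0.10 in MPPs, while another of its probes had an MPP mean of -1.27, so its probes disagreed in sign.

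Paralogues with restricted or induced expression were set beside their partners without comparing levels between probes. Rps27l, which p53 can induce, had ratios of 0.22, 1.66 and 0.69 in HSCs and 0.59, 0.07 and -1.59 in MPPs, and Rps27 had 0.03, 0.25 and 0.11 in HSCs and 0.28, 0.99 and -0.34 in MPPs. Both were above 0 on every HSC array and below 0 on MPP replicate 3. The Rps27 probe is placed on another chromosome than the gene. Its other probes had means of -0.06, -0.15 and -0.14 in HSCs and 0.18, 0.09 and 0.14 in MPPs. The HSC direction of Rps27 was therefore that of 1 probe only. Rpl3l, a paralogue known from muscle that was well above background in 2 of 6 WT and 4 of 6 KO samples, had 0.10, -0.35 and 1.92 in HSCs and 1.76, 0.10 and 0.84 in MPPs, beside 0.11, 0.02 and 0.60 in HSCs and 0.75, -0.41 and -0.34 in MPPs for Rpl3. Rpl10l, known from testis, had -0.12, 0.08 and 0.54 in HSCs and 0.30, 0.06 and -0.51 in MPPs, beside 0.31, 0.06 and 0.42 in HSCs and 0.44, 0.76 and -0.08 in MPPs for Rpl10. Rps4x, the X-linked form, had -0.33, 0.58 and -0.06 in HSCs and 0.21, -0.28 and -0.79 in MPPs from a probe placed on chromosome 3. For each of these paralogues and partners the 3 arrays of at least 1 population included values on both sides of 0.

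MPPs were then compared with HSCs within each dye, which keeps genotype fixed. In WT the members' median was 0.25 higher in MPPs, with 66 of 80 genes above 0, beside a median of -0.08 over all features. In KO it was 0.07, with 56 of 80 above 0, beside -0.08 over all features. Limma called 0 genes in WT, where 0.417% of all features were called, and 0 in KO, where 0.517% were; the smallest adjusted p was 0.269 and 0.498. At an unadjusted p of 0.05, 3 genes passed in WT (14.9% of all features) and 0 in KO (12%). The large subunit median was 0.25 in WT and 0.06 in KO, and the small subunit median 0.28 and 0.08.

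The shift in WT rested on the arrays in row 2 of the slide. The members' median log2 level in WT was 13.98, 14.11 and 14.08 on HSC replicates 1 to 3 and 13.74, 14.36 and 14.41 on MPP replicates 1 to 3. MPP replicate 1, in row 1 with the HSC arrays, was the lowest of the 6 and the other MPP samples the highest. With slide row as a covariate the WT median was -0.13. Row 2 held only MPP arrays, so this value sets MPP replicate 1 alone against the HSC arrays. The WT median ranged from 0.10 to 0.48 as single arrays were left out, 0.10 without MPP replicate 3 and 0.48 without MPP replicate 1. Among KO samples the median level was 15.95, 16.09 and 16.12 for HSCs and 16.11, 16.26 and 15.87 for MPPs, which overlapped; the KO difference was -0.02 without HSC replicate 1.

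Levels of 5 genes did not overlap between the WT populations, 4 higher and 1 lower in MPPs, where 21.7% of all features did not (8.54% higher, 13.2% lower). Rps27l had WT levels of 11.01, 9.73 and 10.18 in HSCs and 11.27, 11.80 and 12.55 in MPPs. All 3 MPP samples were above all 3 HSC samples, MPP replicate 1 by little. The fitted difference was 1.57 (SE 0.47), or 2.96-fold, with an adjusted p of 0.269 in limma. It was 0.97 with slide row as a covariate, which compares MPP replicate 1 alone with the HSC samples. Its KO levels of 12.64, 12.71 and 12.18 in HSCs overlapped those of 13.27, 13.40 and 12.55 in MPPs, with a difference of 0.56 (SE 0.32, adjusted p = 0.520 in limma). Rps10, a small subunit protein, had WT levels of 10.89, 11.37 and 11.45 in HSCs and 11.80, 11.96 and 11.99 in MPPs, a difference of 0.68 (SE 0.25, adjusted p = 0.314 in limma), beside 0.57 (SE 0.45) in KO. Rps3, which lines the mRNA entry channel and also acts in DNA repair, was the gene that was lower, with 13.70, 14.09 and 13.97 in HSCs and 13.66, 12.92 and 12.76 in MPPs, a difference of -0.80 (SE 0.32, adjusted p = 0.324 in limma) beside -0.43 (SE 0.29) in KO. Its HSC replicate 1 and MPP replicate 1 all but met. The WT difference of Rps3 was -0.26 with slide row as a covariate, again from MPP replicate 1 alone. It was -0.30 under median scaling and -0.055 as the mean of the gene's probes.

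Rpl10l and Rpl9 completed the 5, by small differences. Rpl10l had WT levels of 7.67, 7.85 and 7.95 in HSCs and 7.97, 8.09 and 8.47 in MPPs, and Rpl9, a large subunit protein near the stalk, had 14.59, 14.23 and 14.40 in HSCs and 14.64, 14.66 and 14.83 in MPPs. Their differences were 0.35 (SE 0.25) and 0.30 (SE 0.23). Rpl10l was dim, with every WT level below the array medians of all features (8.65 to 8.70), though well above background on 6 of 6 arrays.

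Among KO samples, 3 genes did not overlap, 1 higher and 2 lower in MPPs, where 19.6% of all features did not (8.82% higher, 10.8% lower). Rps29, a zinc-binding protein of the small subunit, had KO levels of 16.40, 16.21 and 16.13 in HSCs and 16.85, 16.69 and 16.40 in MPPs, a difference of 0.40 (SE 0.24), from a probe placed on chromosome 2 where RefSeq has the gene on chromosome 12. Rps13, of the small subunit, had 14.61, 15.16 and 14.62 in HSCs and 13.98, 14.48 and 14.58 in MPPs, a difference of -0.45 (SE 0.29). Rps23 had 17.54, 17.63 and 17.40 in HSCs and 17.37, 17.33 and 16.99 in MPPs, a difference of -0.29 (SE 0.24). The groups of each of these genes were parted by less than the range within a group. None of the 3 was separated in WT.

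**Figure D5:**
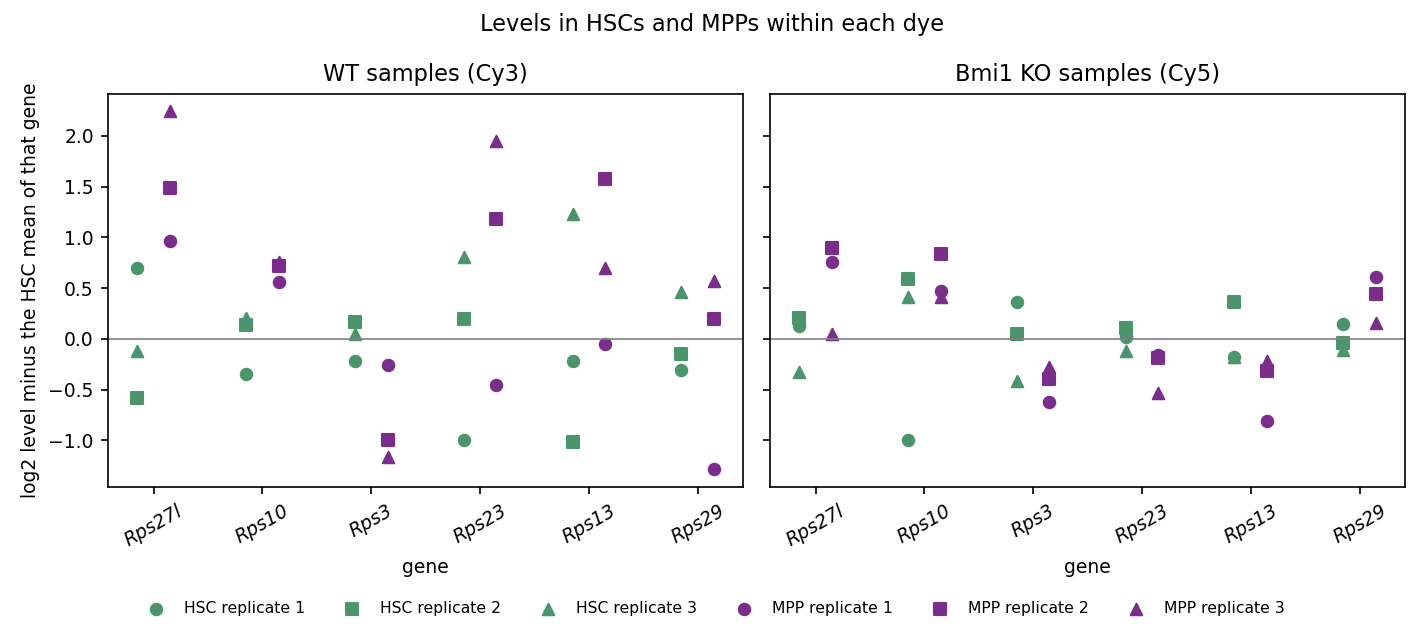
Log2 level of 6 genes (horizontal axis) in WT samples (left, Cy3) and Bmi1 KO samples (right, Cy5), each minus the mean of that gene's HSC samples in the same dye (vertical axis), with HSC samples in green, MPP samples in purple and the replicate number given by the shape. Rps27l in WT has all MPP samples above all HSC samples, by 1.57 on average, and in KO the populations overlap.

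The other genes of the translation machinery give the setting. Of 7 ribosomal proteins or close paralogues whose names fall outside the pattern, 6 were measured, with medians of 0.30 in HSCs and 0.06 in MPPs, 4 above and 2 below 0 in each. None was called in either direction by limma, nor did any pass an unadjusted p of 0.05 (0 of 6). Rpl36al, a paralogue of Rpl36a, was at 0.77 (SE 0.35) in HSCs, and Rpl22l1, the paralogue of Rpl22, at 0.57. Fau, which encodes the small subunit protein S30 as a fusion, was at -0.63 in HSCs and -0.56 in MPPs.

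Of 36 initiation and elongation factors, all measured, 21 were above and 15 below 0 in HSCs (median 0.07), and 22 and 14 in MPPs (median 0.09). Limma called 0 in either direction; at an unadjusted p of 0.05, 1 was higher in HSCs (3.96% of all features) and 2 in MPPs (2.49%). Tpt1, a growth-related protein whose message also carries a TOP tract, had a mean effect of 0.90 (SE 0.18, adjusted p = 0.566 in limma), with 1.01 in HSCs and 0.79 in MPPs. Within the dyes 27 of 36 factors were above 0 in MPPs relative to HSCs in WT (median 0.22) and 27 of 36 in KO (median 0.31), beside -0.08 over all features in each. Limma called 0 of them, where 0.417% of all features were called in WT and 0.517% in KO. At an unadjusted p of 0.05, 4 were higher and 1 lower in WT (14.9% of all features in either direction), and 7 were higher and 1 lower in KO (12%). Eif4ebp2, a repressor of cap-dependent initiation, was at 1.38 (SE 0.30, adjusted p = 0.151 in limma) in KO and 1.12 in WT, and Eif2s2, the beta subunit of eIF2, at 1.25 in KO and 1.47 in WT.

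Of 10 regulators of TOP messages, 9 were measured. Their medians were 0.03 in HSCs, with 5 above and 4 below 0, and -0.23 in MPPs, with 2 above and 7 below, and limma called 0 in either direction (0 also at an unadjusted p of 0.05). Larp1, which binds the cap and TOP tract and represses these messages, was at -0.47 in HSCs and -0.35 in MPPs. Mtor, the kinase that relieves this repression, was at -0.77 in HSCs, and Tsc2, an inhibitor of mTOR signalling, at -1.28 in MPPs. These differences did not pass the threshold.

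RefSeq promoters on GRCm38.p6 were found for 60 of the 81 genes (72 promoters, each of 300 bases). A run of at least 8 pyrimidines within 20 bases of the annotated start was present in 30 of the 72, or 41.7%, beside 16.0% of 32851 promoters of all genes. The motif CCGGAAG, on either strand anywhere in the window, was in 26 (36.1%, beside 8.86% of all promoters), and TATAAA, also on either strand, was in 6 (8.33%, beside 13.6%). CCGGAAG and TATAAA cannot overlap each other, while part of CCGGAAG read on the opposite strand can lie in a pyrimidine run. The 40 bases around the start of 6 genes named above are shown with the pyrimidine run in capitals, because TOP tracts lie at the start of the message; these runs lie within 20 bases on either side of the annotated start, and whether they are the TOP tract was not tested. The runs of Rps25 and Rps27l end before the annotated start.
Rpl7a (chr2:26910787-26910826, + strand): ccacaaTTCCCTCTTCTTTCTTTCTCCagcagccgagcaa
Rpl35 (chr2:39005112-39005151, - strand): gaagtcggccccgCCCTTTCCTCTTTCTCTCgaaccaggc
Rps10 (chr17:27635225-27635264, - strand): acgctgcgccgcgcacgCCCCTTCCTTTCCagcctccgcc
Rps25 (chr9:44407694-44407733, + strand): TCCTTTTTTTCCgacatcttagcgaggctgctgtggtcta
Rps26 (chr10:128626487-128626526, - strand): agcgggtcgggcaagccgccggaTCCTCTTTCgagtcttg
Rps27l (chr9:66946066-66946105, + strand): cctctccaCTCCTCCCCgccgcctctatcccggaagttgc
The 29 tested genes with such a run had median ratios of -0.06, 0.30 and 0.02 on HSC replicates 1 to 3 and 0.52, 0.18 and -0.60 on MPP replicates 1 to 3. The 30 with a promoter but no run had -0.16, 0.15 and -0.11 in HSCs and 0.47, -0.07 and -0.59 in MPPs, and the 21 without an entry had 0.01, 0.32 and 0.06 in HSCs and 0.44, -0.15 and -0.61 in MPPs. All 3 sets were highest on MPP replicate 1 and lowest on MPP replicate 3, and the gap between those with and without a run was smaller than the movement between arrays.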

How the data were processed

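RNA of HSCs and MPPs was measured on 6 arrays with 2 channels each. Per the file headers, the deposited spot intensity (mean signal, local background and processed signal per channel) came from Feature Extraction 10.7.3.1 on probes placed on mm9. Version 8.5.1.1 is the one in the submitters' processing notes. The deposited log10 ratio divides the processed red by the processed green signal. The same log10 values make up the deposited table of all 6 arrays. The other deposited columns used are 0 or 1 marks for spots saturated, outlying or well above background. Other upstream steps are not given in the sources used here.

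Intensity was corrected with normexp (limma 3.58.1, R 4.3.3, offset 50; files read with jsonlite 2.0.0 and data.table, version 1.17.8). Ratios (log2, KO over WT) were normalized by loess on each array, with control and outlying spots at weight 0, and outlying spots were left out. Spots of a probe were averaged. A probe was kept if well above background on all 3 arrays of at least 1 of 4 groups of population and genotype and measured on all 6 arrays (44657 probes); the brightest probe stood for a gene name (28986 features). Log2 levels were quantile-normalized within each dye and never tested across dyes.

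Features were tested two-sided with limma (lmFit, eBayes) on all 6 arrays, with p-values adjusted by Benjamini-Hochberg over all features and a threshold of 0.05. Total degrees of freedom were 6.42 for ratios, 6.27 for WT levels and 6.62 for KO levels. Means carry the SD over 3 arrays or the model's SE; p-values measure the spread between these samples. The number of arrays limits the precision. Replicate numbers recur in both populations. Deviations of same-numbered arrays from their group means correlated at -0.066, 0.010 and 0.017 over all features in ratios. In levels they correlated at 0.157, 0.039 and 0.130 in WT and 0.036, 0.096 and 0.003 in KO. Over the 80 ribosomal protein genes, levels were also correlated after each gene's mean over the 6 arrays was removed. Same-numbered arrays, in the order 1 to 3, then gave 0.589, -0.139 and 0.247 in WT and -0.131, 0.310 and 0.744 in KO. These values differ between numbers and dyes and do not settle whether the numbers are pairs. The numbers were not taken as pairs, and a fit with them as a block is given among the alternatives.

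In each comparison up to 4 genes per direction with the smallest p were named among those with 1 sign on the 3 arrays, or without overlap between populations, plus fixed genes of known role; genes outside this rule are said to be so. Of each wider list, 2 to 4 genes with the smallest p could be named. The ribosomal protein genes and the lists (Diamond-Blackfan anaemia, Mdm2 binding, stalk, proteins outside the name pattern, translation factors, TOP regulators and 5 marker lists) were chosen with earlier results of these data known. Lists are described by counts and medians, with no set test. Some genes are not reported here.

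The alternatives were the deposited processed signals, median in place of loess or quantile scaling, no filter, the mean of probes, each array left out, slide row as a covariate, the replicate number as a block and a loess curve without members. Tested on simulated data of 28986 features with 200 shifted 4-fold, the fit recovered 18.5% in HSCs, 18.5% in MPPs, 49.5% in the mean effect, 0% in the difference, 0% between populations in WT and 25.5% in KO; at 16-fold it recovered 78.5%, 80.5%, 94.0%, 62.5%, 67.5% and 80.0%, and at 2-fold 0% in each.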

Additional observations from a re-analysis of the deposited data

How the results depend on the processing

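Under other settings 203 summary values stayed within the spread between arrays, or within 1.5 times for counts, and 13 moved. Median scaling moved the members' median to 1.16 in HSCs, 0.71 in MPPs and 0.92 in the mean effect (all features 0.29, 0.26 and 0.28) and the large minus small gap to 0.12 in HSCs and 0.17 in the mean effect. It also called 4 members in the mean effect, all higher in KO on 6 of 6 arrays, among them Rps26 at 2.03 (adjusted p = 0.0306 in limma), Rps25 at 2.20 (0.0348) and Rpl31 at 1.73 (0.0457). In all, 302 features (1.04%) were called. With the deposited processed signals the gap was 0.20 in MPPs. With slide row as a covariate, which leaves MPP replicate 1 alone against the HSC arrays, the WT median was -0.13. Leaving out single arrays, the gap ranged from 0.011 to 0.21 in HSCs, -0.054 to 0.29 in MPPs, -0.078 to 0.094 in the difference and -0.011 to 0.18 in the mean effect, and 0 members were called without any array. The cause of these moves was not tested. Values with the sign turned under median scaling were, in HSCs, Rpl11 0.59, Rpl22 0.64, Rpl37 0.45, Rpl39 0.23, Rplp0 0.69, Rps14 0.16, Rps16 0.039, Rps18 0.58, Rps19 0.92 and Rps6 1.03; in MPPs, Rpl10l 0.30, Rpl22 0.55, Rpl3 0.79, Rpl39 0.14, Rplp0 0.34, Rps27l 0.042 and Rps6 0.60; and in the mean effect, Rpl39 0.19. The processed signals turned Rpl22 in MPPs (0.014) and Rplp0 (0.077) and Rps19 (0.042) in HSCs. The mean of probes turned Rplp0 (0.18), Rps27 (-0.055) and Rps6 (0.055) in HSCs and Rpsa in MPPs (-0.10). Genes whose sign turned when an array was left out ranged, in HSCs, from -0.021 to 0.31 (Rpl10l), -0.81 to 0.46 (Rpl11), -0.38 to 0.29 (Rpl22), -0.39 to 0.32 (Rpl38), -0.13 to 1.01 (Rpl3l), -0.15 to 0.073 (Rplp0), -0.14 to 0.12 (Rps19) and -0.046 to 0.42 (Rpsa). In MPPs they ranged from -0.23 to 0.18 (Rpl10l), -0.11 to 0.012 (Rpl22), -0.38 to 0.20 (Rpl3), -0.68 to 0.12 (Rplp0), -0.50 to 0.66 (Rps14), -0.075 to 0.43 (Rps19), -0.031 to 0.63 (Rps27) and -0.76 to 0.33 (Rps27l).

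With the replicate number as a block, 0 members were called in the difference, the mean effect and MPPs over HSCs in WT and KO, with smallest adjusted p in limma of 0.997, 0.613, 0.305 and 0.492. The medians stayed at -0.11, -0.04, 0.25 and 0.07. The block called 37 features in KO and 0 in the others, and since the numbers share no known source this is a count only.

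With 3 arrays per population a 2-fold change was recovered in 0% of simulated features, so smaller shifts of these genes were not detectable. Loess and quantile scaling leave no absolute level, so a shift of all bright messages alike could be removed from the ratios in part or in full. The 673 other bright features still had medians of 0.46 and 0.62 on MPP replicates 2 and 3. Probes that match near-identical copies limit what a single gene's value means.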
